A study of Mus musculus with 2 samples.

Results

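The death receptor pathway and the caspases were described by 8 genes, Fas, Fadd, Ripk1, Birc3, Cflar, Casp8, Casp9 and Casp6, chosen by name. They were chosen with earlier results of these data known. A deposited table of genes near STAT5 binding regions was searched for these names, and 6 of the 8 were among its 4934 genes. STAT5 is a transcription factor that the IL-2 receptor activates, and its binding was measured by ChIP-seq, the sequencing of chromatin fragments pulled down with an antibody against it (the extraction notes name STAT5A, and the antibody is labelled anti-STAT5). The cells were effector CD8 T cells of the C57BL/6 strain from OT-I mice, whose transgenic T cell receptor recognises the ovalbumin peptide SIINFEKL. They had been transferred into mice, primed there with that peptide plus agonists of CD134 and CD137, and sorted from spleens on day 4. Both groups share this history: the control group was 1 library of cells left untreated, and the IL-2 group was 1 library of cells treated in culture with IL-2 at 0.5 µg/ml for 1 hour. The sources used here do not give the age, the number of mice behind each library or any pooling. With 1 library a group there is no replicate spread and no test, so every value below describes these libraries.

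Death receptors are cell surface proteins of the tumour necrosis factor receptor family that can pass a ligand signal to caspases, proteases that dismantle the cell. Fas binds Fas ligand and recruits the adaptor FADD, which gathers caspase-8, while c-FLIP, the product of Cflar, resembles caspase-8 and can limit its activation. RIPK1 is a kinase of the TNF receptor complex, where the ubiquitin ligase cIAP2, the product of Birc3, modifies it and its partners. Caspase-9 starts the mitochondrial branch, and caspase-6 is cut and activated downstream. In T cells these proteins are known for removing activated cells after a response and, for caspase-8 and c-FLIP, also for allowing activated cells to survive.

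Promoter sequences were available for all 8 members from RefSeq (build GRCm38.p6, the assembly called mm10), as windows of 300 bases, from 250 before to 50 after an annotated start. They are shown for Ripk1 and Fas because these were the only members whose STAT5 region, given in the table as a single position, fell inside such a window. Capitals mark each match to TTCNNNGAA, the letters of the STAT binding motif, which read the same on both strands. Ripk1 is on the plus strand at chr13:34002624-34002923 and Fas on the plus strand at chr19:34290409-34290708.
Ripk1: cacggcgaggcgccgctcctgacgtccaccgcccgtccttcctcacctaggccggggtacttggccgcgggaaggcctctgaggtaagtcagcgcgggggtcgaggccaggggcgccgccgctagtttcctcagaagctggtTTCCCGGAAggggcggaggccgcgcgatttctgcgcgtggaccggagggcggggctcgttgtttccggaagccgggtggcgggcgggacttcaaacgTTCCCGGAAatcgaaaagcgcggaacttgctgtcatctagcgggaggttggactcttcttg
Fas: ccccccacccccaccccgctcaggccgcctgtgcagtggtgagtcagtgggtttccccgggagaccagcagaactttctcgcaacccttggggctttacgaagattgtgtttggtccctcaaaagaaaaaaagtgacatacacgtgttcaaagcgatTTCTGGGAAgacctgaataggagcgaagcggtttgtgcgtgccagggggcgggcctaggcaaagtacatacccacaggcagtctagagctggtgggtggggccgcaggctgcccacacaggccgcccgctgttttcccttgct

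The Ripk1 window held the same 9 letters, TTCCCGGAA, at 2 places, centred 104 and 7 bases before the start. The Fas window held TTCTGGGAA once, centred 89 bases before the start. The centre of the Fas match lay 22 bases from the region's position, and the nearer of the Ripk1 matches 82 bases from it. Of all 32851 promoter windows in the RefSeq table, 8.30% held at least 1 match and 0.457% held 2 or more. Among the 437 windows that contained the position of a listed region, 46.2% held a match and 4.12% held 2 or more, against 7.79% and 0.407% of the 32414 windows without one. The other 7 windows of the members, among them a second window of Ripk1, held neither a region nor a match. A match is a description of letters, and windows of one gene can overlap.

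The 6 listed members had similarly low heights in control and widely spread heights with IL-2. For the table as a whole, the median of the mean peak height was 5 in the control library and 20.75 in the IL-2 library, in signal units. The members lay between 3 and 5 in control, with 3 at the control median, 3 below it and 0 above it. With IL-2 they lay between 13 and 114, with 4 above the IL-2 median and 2 below it. No interval had been called near a member in the control library, where 12 of the 4934 genes had one.

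**Figure D1:**
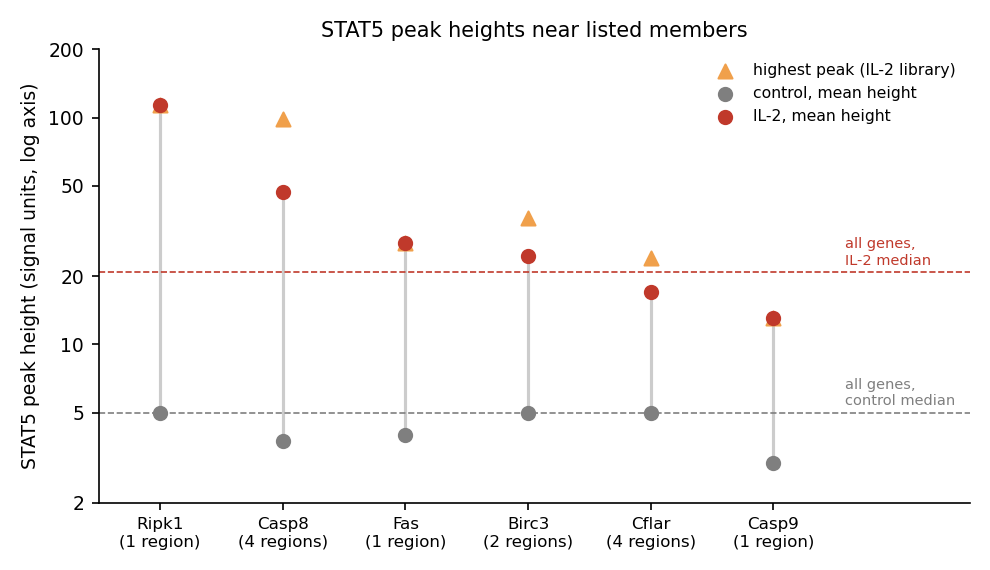
Mean STAT5 peak height near each listed member (log axis, signal units) in the control library (grey) and the IL-2 library (red), with the highest single peak (triangle, hidden behind the mean for genes with 1 region) and the medians of all listed genes (dashed). Control heights lie between 3 and 5, and IL-2 heights run from 13 at Casp9 to 114 at Ripk1.

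Ratios were taken after adding 5 to both heights, IL-2 over control, which understates the fold of low heights. All 6 listed members had a ratio of at least 2, a share that 83.8% of all listed genes reached, so the count does not set the members apart. The median log2 ratio was 1.72 over the members and 1.42 over all listed genes. A gene entered the table because of a region near it, and every member region came from the IL-2 library, which favours ratios above 1. How the libraries were scaled to each other is unknown. After control heights were multiplied by 4.15 to give both libraries the same median, which lowered the median log2 ratio of all genes by construction (a shift of -1.27), 5 of the 6 members were higher with IL-2 (58.7% of all genes) and 2, Ripk1 and Casp8, had a ratio of at least 2 (14% of all genes). Cflar was then lower with IL-2, at a log2 ratio of -0.23. Casp9, at 0.04, was nearly equal in both libraries and below the median of all genes after this scaling, 0.15.

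The table held 4187 of the 21900 protein-coding genes in RefSeq, or 19.1%, and 6 of the 8 members. Because the members were chosen with earlier results of these data known, these shares are given as description only. The 6 members had 13 regions, none of them in common: 4 each at Casp8 and Cflar, 2 at Birc3 and 1 each at Fas, Ripk1 and Casp9. By the deposited gene models 9 of the 13 lay inside the gene, 4 upstream and 0 downstream. Over all 8337 pairs of a gene and a region, 50.01% were inside, 29.7% upstream and 20.3% downstream. Within 1 kb of the member's own start lay 5 of the 13 regions, 1 each at Fas, Ripk1, Birc3, Cflar and Casp8, against 22% of all pairs. Another gene was listed for 2 of the 13 regions, those of Ripk1 and Casp9, while 30.1% of all distinct regions were listed for several genes. Exon and intron positions were not used here.

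Fas, the receptor, had 1 region on chromosome 19 at position 34290592, 67 bp upstream of its start at 34290659, and this region was listed for no other gene. Its height was 4 in control and 28 with IL-2, a log2 ratio of 1.87. The IL-2 height exceeded the median of all genes, and 68.3% of genes were at or below it. Among the 1120 genes that likewise had a single region within 1 kb of the start, the median was 16, and 21.5% reached the height of Fas. The gene body of Fas, which spans 34290659 to 34327770, held no interval: the region's interval number was followed directly by one at 34527152, near Lipa, 199 kb beyond the gene. Interval numbers follow genome order on every chromosome of the table, so consecutive numbers leave no further called interval between them.

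Fadd, the adaptor that links Fas to caspase-8, had no region assigned. RefSeq places it on the minus strand of chromosome 7 from 144578323 to 144582441. The nearest listed region, at 144560768 and listed for Ppfia1 and Gm10574, lay 17.6 kb from the gene's end and 21.7 kb from its start. It was the last listed interval of chromosome 7, and the next number, 6397 after 6396, was already on another chromosome. By these numbers no IL-2 interval was called at or beyond Fadd on that chromosome.

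Ripk1, the kinase of the TNF receptor complex, had the highest mean of the members. Its height was 5 in control and 114 with IL-2, a log2 ratio of 3.57. Only 26 of the 4934 genes, Ripk1 included, reached that mean IL-2 height, and 155 reached it by their highest peak. Of the 1120 genes with a single region within 1 kb of the start, 9 did. Each of these counts also includes Serpinb6a, whose only region is the same as that of Ripk1. The region, on chromosome 13 at 34002688, was shared with Serpinb6a, which encodes a protease inhibitor of the serpin family and lies on the opposite strand. The deposited starts of these genes were 80 bp apart, at 34002874 for Ripk1 and 34002794 for Serpinb6a. The region's position was 186 bp upstream of the former and 106 bp inside the latter, so its height cannot be assigned to one gene of the pair. It is the region whose promoter window carries the repeated TTCCCGGAA shown above. No further interval lay in Ripk1 itself, since the next number was at 34046720, near Bphl, 11.6 kb past its end.

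Birc3, which encodes the ubiquitin ligase cIAP2, had 2 regions inside the gene on chromosome 9, both listed for Birc3 alone. They lay at 7872992, 178 bp after the start at 7873170, and at 7863104, 10066 bp after it (the gene is on the minus strand). The mean height was 5 in control and 24.5 with IL-2, a log2 ratio of 1.56. With a highest peak of 36, the mean of 2 regions leaves 13 for the other one, and the table does not say which of them was higher. Birc2, the neighbouring gene of the related ligase cIAP1, had 1 region at 7837232, 1977 bp upstream of its deposited start, with 3 in control and 11 with IL-2. Of these neighbours Birc3 thus had the greater height in both libraries, although no interval was called near either gene in control. The Birc2 region lay 25872 bp from the nearer Birc3 region.

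Cflar, whose product can limit the activation of caspase-8, and Casp8 are neighbours on chromosome 1, both on the plus strand and 36.5 kb apart. Each had 4 regions, a number that 8.25% of listed genes reached or exceeded, and 0 regions were common to both. Those of Cflar lay at 58711680, 58714080, 58720368 and 58728544, which is 1606 bp upstream and 794, 7082 and 15258 bp after its start at 58713286. Those of Casp8 lay at 58795536, 58797600, 58802880 and 58806848, which is 162, 2226, 7506 and 11474 bp after its start at 58795374. In both genes the regions thus sat in the first part: the last 30.3 kb of Cflar and the last 40.7 kb of Casp8 held none. Numbers 138 to 145 ran without a break over these 8 regions, so no interval was called in the 67.0 kb between the last region of Cflar and the first of Casp8.

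**Figure D2:**
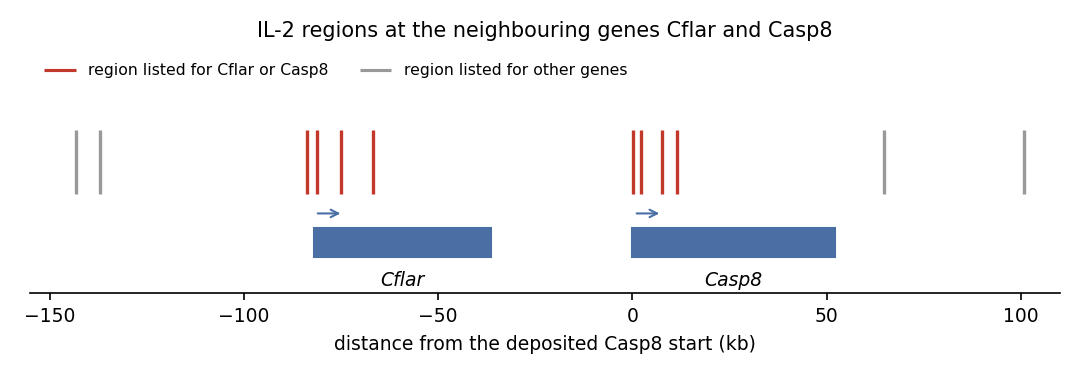
Map of the Cflar and Casp8 locus, with distance from the deposited Casp8 start in kb, gene bodies as bars, arrows for the direction of transcription and vertical lines for the positions of IL-2 regions. Each gene has 4 regions, in its first part or, for the first Cflar region, upstream of the deposited start. The 67.0 kb between the groups holds none.

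The heights of these neighbours were unlike. Casp8, the initiator caspase of the receptor, had a mean of 3.75 in control and 47 with IL-2, a log2 ratio of 2.57, and a highest peak of 99. Cflar had 5 in control and 17 with IL-2, a log2 ratio of 1.14, and a highest peak of 24. Casp8 was therefore the higher of the pair with IL-2, 2.76 times by the mean and 4.13 times by the highest peak. In control it was the lower, but both heights were low and no interval was called near either gene there. Neither library's heights of single regions are determined at these genes. With IL-2 the heights of the 4 Casp8 regions add to 188, so those other than the highest average 29.7, and the same sums at Cflar are 68 and 14.7. The weaker Casp8 regions were on average above the highest peak of Cflar.

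Set against genes of equal region number, the pair also lay on different sides. The 189 genes with 4 regions had a median IL-2 mean of 29.25 and a median highest peak of 61. Of these genes, 31 reached the mean of Casp8 and 43 its highest peak. At the other side, 19 of them had a mean no higher than that of Cflar, and 20 a highest peak no higher. Both counts include the gene itself. A span as short as the 95.2 kb over the 8 regions was found for 3.31% of the 5562 runs of 8 consecutive listed regions on a chromosome, and such runs overlap one another. This run was picked as the regions of a pair of neighbouring genes, a choice that itself favours a short span.

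Casp9, the initiator caspase of the mitochondrial branch, had the lowest IL-2 height of the members. Its height was 3 in control and 13 with IL-2, a log2 ratio of 1.17, and 16.8% of genes were at or below that IL-2 height. The region, on chromosome 4 at 141791072, lay 2540 bp upstream of the Casp9 start at 141793612. It was shared with Dnajc16, a gene of the DnaJ co-chaperone family on the opposite strand. The region lay nearer to that gene, 428 bp upstream of its start at 141790644. The height therefore cannot be assigned to either gene of the pair alone. The Casp9 gene held no interval, and the next number was at 143171984, near Prdm2.

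Casp6, an effector caspase, had no region assigned and appeared under no other symbol in the table. RefSeq places it on chromosome 3 from 129901415 to 129914112. The listed regions on either side were at 129830976, near Gar1, Rrh and Cfi and 70.4 kb from its start, and at 131140080, near Lef1. The 4 interval numbers between them belong to no listed gene, and their positions were not analysed here.

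**Figure D3:**
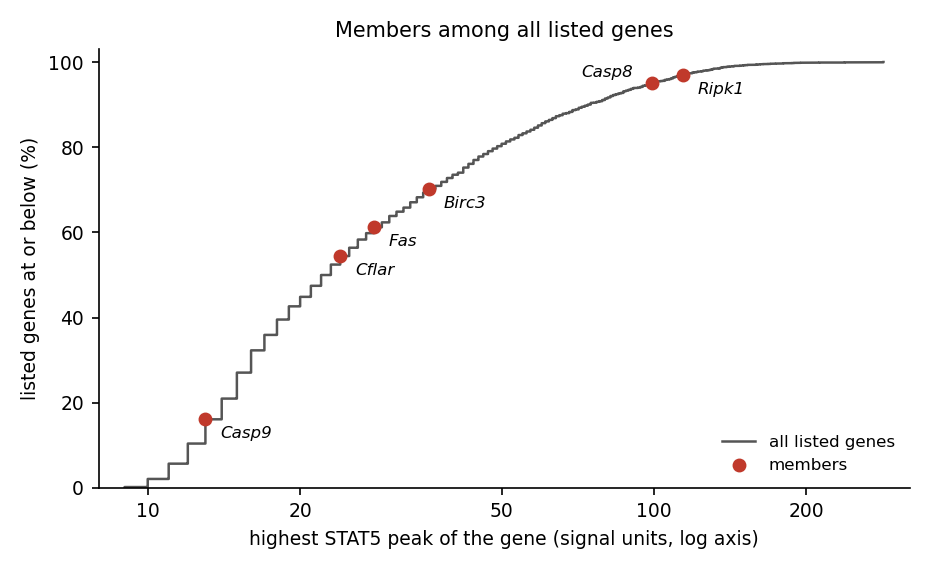
Share of all 4934 listed genes (vertical axis, in %) whose highest STAT5 peak is at or below a given height (horizontal log axis, signal units), with the 6 listed members as red points. Ripk1 at 114 lies at 97.0%, Casp8 at 99 at 95.1% and Casp9 at 13 at 16.1%.

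By their highest peaks the members fell in the order Ripk1 (114), Casp8 (99), Birc3 (36), Fas (28), Cflar (24) and Casp9 (13). The median over all listed genes was 23, so Cflar was close to it. A gene with more regions has more chances of a high maximum, and by the mean the order of the first 2 was the same while Fas (28) came before Birc3 (24.5). Without replicates, no neighbours in this order can be said to differ.

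The wider pathway was counted from lists of ligands, receptors, adaptors and regulators, IAP proteins and their antagonists, caspases, the mitochondrial branch and caspase substrates. The genes counted here are 50 beside the members, of which 20 were in the table (19.1% of all protein-coding genes were), 15 with a ratio of at least 2 (83.8% of all listed genes had one). The same 19.1% is the share to set beside the counts of each role below, which are small. The lists were chosen with earlier results of these data known, so these shares too are description only. Of the 20 genes, 11 had a region that was also listed for another gene, so their heights are not theirs alone. The median log2 ratio of the 20 was 1.38, close to the 1.42 of all listed genes. With the control heights multiplied as above, IL-2 was the higher library at 10 of the 20 (58.7% of all genes).

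Of the roles, the death ligands had the highest median log2 ratio, 2.996 over the 4 of 6 genes listed, which are not independent since Tnf and Lta share their regions. Fasl, the ligand of Fas, had 7 in control and 89.67 with IL-2 over 3 regions, and its highest peak was 148. Tnf and Lta, which encode cytokines of the TNF family, had the same 4 regions, with a mean of 6 and 83.75. Their highest peak was 284, well above that mean. Regions of Tnf and Lta were shared also with Ltb, Lst1 and Nfkbil1. Tnfsf10, which encodes TRAIL, had 6 and 22 at 1 region. Tnfsf12 and Tnfsf15 had none. For the ligand and receptor of the Fas pair, the IL-2 height was thus 89.67 near Fasl and 28 near Fas, at 3 regions and 1.

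Of 7 receptors 3 were listed, Fas among them. Tnfrsf1b, the TNF receptor that has no death domain, had 5.2 and 32.2 over 5 regions with a highest peak of 100. Tnfrsf25, also called DR3, had 3 and 12.5 over 2 regions and shared with Espn and Plekhg5. Tnfrsf1a, the TNF receptor with a death domain, was not listed, nor were Tnfrsf10b, Tnfrsf21 and Ngfr.

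Adaptors and regulators were listed for 9 of 16 genes, Ripk1 and Cflar included. Traf1, an adaptor of TNF receptor family members, had 6 and 64 over 4 regions with a highest peak of 116. Rnf31, a subunit of the linear ubiquitin ligase complex, had 5.5 and 55.5, and Tradd, the adaptor that brings RIPK1 to the TNF receptor, had 6 and 46.5. Rnf31 shared with Irf9, Emc9, Psme1 and Psme2, and Tradd with Nol3, Hsf4 and 3 other genes. Lower heights were found at Traf5 (4 and 27), Cyld, a deubiquitinase (7 and 21), Traf2 (7 and 14) and Sharpin (5 and 12). Regions of Traf5 were shared with Rcor3 and Gm3934, that of Traf2 with Edf1, and that of Sharpin with Cyc1, Gpaa1 and Maf1, while Traf1 and Cyld shared with none. The ratios of Traf2 and Sharpin were under 2. Traf3, Ripk3, Mlkl, Tnfaip3, Rbck1 and Otulin were not listed, as Fadd was not.

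**Figure D4:**
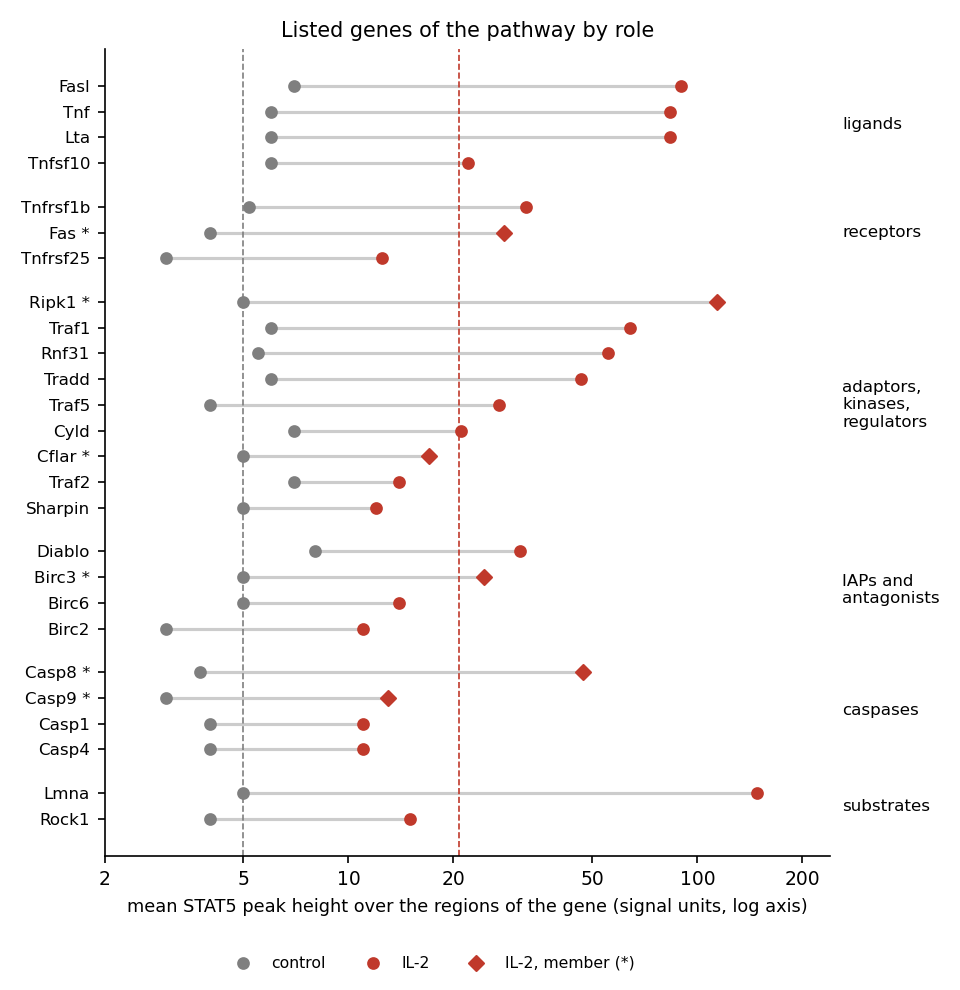
Mean STAT5 peak height (log axis, signal units) of the 26 listed genes of the pathway counted here, ordered by role, in the control library (grey) and the IL-2 library (red; diamonds and asterisks mark the members), with dashed lines at the medians of all listed genes. Control heights run from 3 to 8, while IL-2 heights run from 11 to 148.

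Of the 8 caspases counted here 4 were listed, with Casp8 the highest. Casp1 and Casp4, inflammatory caspases, shared 1 region with 4 and 11, a ratio under 2. Casp2, Casp12 and Casp14 had none, like Casp6. The initiators of the receptor and the mitochondrial branch, Casp8 and Casp9, were thus at 47 and 13 with IL-2. The height at Casp9 is not its own alone, since the region is shared with Dnajc16 and nearer to that start.

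Among the 11 IAP genes and antagonists 4 were listed. Diablo, an antagonist of IAP proteins, had 8 and 31 at a region shared with Vps33a, and Birc6 had 5 and 14, a ratio under 2. With Birc2 and Birc3 these were all, and Xiap and Birc5 were not listed. Of the 3 genes of the mitochondrial branch, Apaf1, Cycs and Bid, 0 had a region. Of 7 substrates and lysis effectors, Lmna had 5 and 148 at a region 7036 bp upstream of its start, and Rock1 had 4 and 15.

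The promoter windows of 5 genes of the pathway contained a listed region, and 4 of these held the TTCNNNGAA letters, beside 46.2% of all windows with a listed region. Of the 4, Ripk1 and Fas are the members shown above, and the others were Lta, with TTCAGGGAA and TTCCCAGAA, and Tnfrsf25, with TTCTCAGAA. The window of Birc2, whose region had an IL-2 height of 11, held no match, which says only that the letters are not in those 300 bases.

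Of marker genes looked up for the labelled cell type, 7 of 8 for T cells were listed. For B cells 0 of 4 and for myeloid cells 0 of 4 were listed, beside 19.1% of all protein-coding genes. The 7 are not separate loci: Cd3d, Cd3g and Cd3e lie close together on chromosome 9, and Cd8a and Cd8b1 on chromosome 6. Cd3d and Cd3g had 1 region each with equal heights, and may count the same region. Of the 7, Cd8a (6.25 and 42.25), Thy1 (5 and 34.25) and Cd2 (5.8 and 22.2) lay above the IL-2 median of all listed genes. The other 4 lay below it, with Cd3d and Cd3g at 5 and 19, Cd3e at 5 and 15, and Cd8b1 at 4.5 and 13. With the scaled control heights, IL-2 was the higher library at 2 of the 7 (58.7% of all genes). Of 2 NK cell genes 1, Klrb1c, was listed with 4 and 19. A listed region is not a measure of expression, so the cell type cannot be checked from these regions alone. The depth of each library is unknown, since the table holds heights and no read counts.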

How the data were processed

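STAT5 ChIP-seq had been done on 1 control library and 1 IL-2 library. Per the submitters' processing notes, BWA and mm10 were used, and the sources used here do not give the peak caller, read extension, depth or scaling. The authors deposited a table of genes whose mean and highest peak heights are a signal (coverage height) that is never negative. The deposited presence flags and region counts, the other number columns, are not heights. No columns of other samples were present.

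Positions were computed from the deposited gene start and distance, and were the same from every gene for 5703 of 5703 regions (5449 are multiples of 16 bp). Log2 ratios used a pseudocount of 5, with a size rule of 2. The solving of single heights from gene means was tested on simulated data. Gene identifiers matched RefSeq GRCm38.p6 for 4799 of 4934 genes, and 2572 deposited starts equalled the start of a RefSeq promoter window. Python 3.11.15 and pandas 2.3.3 were used. Some genes of the lists are not reported here and were left out of the counts. Every other pathway gene with a region was named by rule, as were genes sharing a member's region, and the nearest listed genes around members were also given. The members and lists were chosen with earlier results of these data known.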

Additional observations from a re-analysis of the deposited data

How the results depend on the processing

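No paired analysis was possible because there was 1 library a group. The median log2 ratio of the listed members, 1.72, was 2.31 with a pseudocount of 1, 1.32 with 10, 0.40 with control heights scaled to the same median, 1.96 when the highest peak stood for the IL-2 height and 1.87 over the 3 distinct regions whose own height the table determines. The count of 6 members at a ratio of 2 or more fell to 2 with that scaling (14% of all genes). It fell to 2 with a 4-fold rule (23.1% of all genes) and 4 with a pseudocount of 10. The count stayed 6 with a pseudocount of 1, the highest peak or a 1.5-fold rule. For either pseudocount, the highest peak and the 1.5-fold rule, the share of all genes is not given here. Those counts therefore do not set the members apart. Cflar changed direction with scaling (-0.23), and the other 5 kept theirs in every setting run, Casp9 only narrowly with scaling (0.04). The 6 members with a region became 4 when a region counted only for the nearest listed start. Ripk1 and Casp9 then lost theirs to Serpinb6a and Dnajc16. The share of all protein-coding genes under that rule is not given here. As 30.1% of all distinct regions were listed for several genes, other genes would lose theirs too. The 5 regions within 1 kb of the start became 8 within 5 kb. Of all pairs of a gene and a region, 22% lay within 1 kb and 40.5% within 5 kb. Of the 2 regions in a promoter window, 1 window, that of Ripk1, also held TTC and GAA with 4 bases between them on either strand, a spacing that 8.47% of windows with a region and 6.93% of those without held. Windows around all 13 regions, or of other lengths, were not run, since only promoter sequences were used here. Unknown depth limits every height.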

Other observations

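The place of some member regions depended on the gene model. The Cflar region called 1606 bp upstream in the deposited table lay inside the gene in RefSeq GRCm38.p6, where Cflar begins at 58711311, and 189 bp after the start used for its promoter window, 58711491. The Ripk1 region, upstream by the deposited start, lay inside the RefSeq gene, which begins at 34002225. The Casp8 region 7506 bp inside the gene lay 378 bp after the start used for the RefSeq promoter window, 58802502. The Birc3 region near the start lay 129 bases outside its promoter window and the first Cflar region 140 bases outside, so the letters under these regions were not read.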
